A study of Mus musculus with 16 samples.

Results

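Toll-like receptors (TLRs) are the innate immune receptors examined here in microglia of the olfactory bulb. The genes were taken by symbol from the table of raw counts (Tlr1, Tlr2, Tlr3, Tlr4, Tlr5, Tlr6, Tlr7, Tlr8, Tlr9 and Tlr13), which gave 10 of the 57010 genes listed. Microglia were isolated with CD11b magnetic beads from mice aged 2 months, in 16 libraries. The 4 groups of 4 libraries were female and male C57BL/6J mice (WT_f and WT_m) and female and male App NL-G-F mice (KI_f and KI_m). App NL-G-F mice carry a knock-in of the Swedish, Arctic and Iberian changes in App on the C57BL/6J background, and the controls were purchased C57BL/6J mice, which are not stated to be littermates. The sources used here do not tie each library to a mouse. The design asks whether olfactory bulb microglia differ between the genotypes, in females and in males.

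TLRs recognise conserved microbial molecules and some products of damaged cells. Tlr1, Tlr2, Tlr4, Tlr5 and Tlr6 act at the cell surface, where Tlr2 pairs with Tlr1 or Tlr6 to bind lipopeptides, Tlr4 with Ly96 (MD-2) and Cd14 binds lipopolysaccharide, and Tlr5 binds flagellin. Tlr3, Tlr7, Tlr8, Tlr9 and Tlr13 sit in endosomes and read nucleic acids: Tlr3 double-stranded RNA, Tlr7 and Tlr8 single-stranded RNA, Tlr9 DNA with unmethylated CpG, and Tlr13 a stretch of bacterial ribosomal RNA. Through the adaptors Myd88 and Ticam1 (TRIF) they switch on NF-kB, MAP kinases and interferon regulatory factors, and microglia use them as main sensors of infection and injury in the brain.

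All 10 genes had at least 5 counts in 16 of 16 libraries, so each passed the filter of 5 counts in 8 libraries. Tlr8, the sparsest, had 39 to 131 counts per library and Tlr7, the most counted, 1931 to 5553. In GRCm39 coordinates, Tlr7 (chrX:166086758-166113605), Tlr8 (chrX:166024184-166047325) and Tlr13 (chrX:105186810-105204533) lie on the X chromosome. Tlr1 (chr5:65082022-65090941) and Tlr6 (chr5:65108704-65203497) are neighbours on the minus strand of chromosome 5. The others are Tlr2 (chr3:83743576-83749074), Tlr3 (chr8:45848702-45864117), Tlr4 (chr4:66745783-66849936), Tlr5 (chr1:182782311-182805500) and Tlr9 (chr9:106099797-106104082).

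Tlr1 and Tlr6 are near copies over part of their coding sequence. The longest stretch they share is shown because a read pair wholly inside it cannot be given to 1 of the 2 genes. There were 4 identical runs of at least 75 bases, of 119, 229, 208 and 80 bases and 636 in all. The longest, of 229 bases, lies at chr5:65082880-65083108 in Tlr1 and chr5:65111171-65111399 in Tlr6, both on the minus strand of GRCm39:

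Longest shared run: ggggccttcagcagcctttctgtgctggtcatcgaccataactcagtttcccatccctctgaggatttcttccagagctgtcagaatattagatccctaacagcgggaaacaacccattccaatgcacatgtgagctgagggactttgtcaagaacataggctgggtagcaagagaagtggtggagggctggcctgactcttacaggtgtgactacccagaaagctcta

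Of all windows of 75 bases in the coding sequence, 14.7% of those of Tlr1 and 14.5% of those of Tlr6 were found in the other gene, while no other pair of the 10 receptors shared such a window. Just before the run, 60 bases of the 2 genes differed at 1 base, which the capital marks:

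Tlr1: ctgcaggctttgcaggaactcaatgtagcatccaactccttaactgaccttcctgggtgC

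Tlr6: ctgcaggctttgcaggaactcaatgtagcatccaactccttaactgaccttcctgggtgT

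These shares do not measure how uncertain the counts of Tlr1 and Tlr6 are. Counts come from read pairs over all exons (3381 and 4859 bases), not from single windows of the coding sequence. How many read pairs were affected was not tested. Gm45542, an antisense transcript that overlaps an exon of Tlr3, had 0 to 2 counts, and Fam114a1, which lies within the span of Tlr6 on the opposite strand without exonic overlap, had 129 to 309. The strand setting of the counting is not given in the sources used here, so reads of Tlr3 and Gm45542 cannot be told apart where they overlap.

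Library totals ran from 9052932 to 18117286 counts, and a count of 0 would allow up to 0.169 to 0.347 CPM. CPM are counts scaled to library totals, here after adjustment by the trimmed mean of M-values (TMM), and the floor is 3 counts. Of the microglia markers, P2ry12 was at 1398 to 1850 CPM over the 16 libraries, Tmem119 at 538 to 720 CPM and Cx3cr1 at 2894 to 3620 CPM, and none of these was called for genotype over both sexes. The 8 border macrophage genes summed to 1207 to 1681 CPM, the 7 monocyte genes to 25.7 to 39.6 CPM and the 7 neutrophil genes to 3.51 to 27.0 CPM, of which 3 passed the filter. The 6 dendritic cell genes (4 tested) summed to 11.1 to 20.1 CPM and the 6 B cell genes (2 tested) to 184 to 231 CPM. No tested gene of these lists was called in that comparison, beside 8.64% of all tested genes. Within females 1 dendritic cell gene was called lower and 0 genes of the other lists, beside 7.15%. Border macrophages, monocytes and neutrophils also carry TLRs and CD11b. The part of any of these cells in the receptor counts was not tested. App was counted at 395 to 420 CPM on average in the 4 groups, and that level does not check the knock-in. The labels number the libraries from 1 to 16. Numbers 1 to 8 are replicates 1 and 2 of the 4 groups and numbers 9 to 16 replicates 3 and 4. These are called the first and the second library set here, and results are also given within them because several genes differed between them. The sets were added after those differences were seen, so FDRs that rest on them are a description. What the numbers stand for is not stated.

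The 3 highest levels were those of endosomal receptors, while the other 2 endosomal receptors, Tlr3 and Tlr8, were lower. Divided by exonic length, Tlr7 was the highest at 46.0 ± 6.19 CPM per kb (SD, n = 16), followed by Tlr13 at 31.8 ± 2.94, Tlr9 at 25.4 ± 2.10 and the surface receptor Tlr2 at 19.3 ± 4.01 CPM per kb. Tlr7 lay above Tlr13 in 16 of 16 libraries and their ranges did not overlap. The ranges of Tlr13 and Tlr9, and of Tlr9 and Tlr2, overlapped over the libraries, although within a library Tlr13 was above Tlr9 in 16 of 16 and Tlr9 above Tlr2 in 15 of 16. By exonic length a middle group held Tlr4, the lipopolysaccharide receptor, at 11.02 ± 1.18, Tlr3 at 9.83 ± 0.734 and Tlr1 at 7.53 ± 0.717 CPM per kb. Tlr4 was above Tlr3 in 13 of 16 libraries.

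Tlr5 at 4.16 ± 0.431 and Tlr6 at 4.03 ± 0.409 CPM per kb did not differ beyond their spread, with Tlr5 the higher in 10 of 16 libraries. Tlr8 was the lowest at 1.41 ± 0.332 CPM per kb, with a range below that of every other member. The mean of Tlr7 was 32.7 times that of Tlr8. On the scale of CPM without a length, Tlr7 held 30.5% of the summed reads of the 10 receptors and Tlr7 with Tlr13 held 49.4%. The order was the same in the WT libraries alone.

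**Figure D1:**
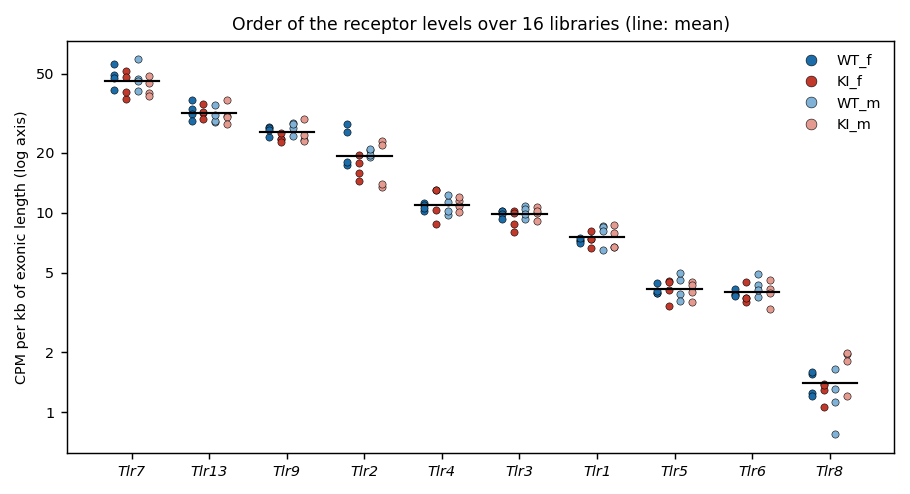
Level of each receptor in CPM per kb of exonic length on a log axis, 1 point per library coloured by group, with a line at the mean of 16 libraries. Tlr7 stands above all other receptors and Tlr8 below them, while neighbours such as Tlr5 and Tlr6 overlap.

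The spread between libraries differed among the receptors. Tlr8 (coefficient of variation 23.6%, with few counts) and Tlr2 (20.7%, with 858 to 2147 counts) varied most, Tlr7 had 13.4%, and the other 7 lay between 7.47% (Tlr3) and 10.7% (Tlr4).

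None of the 10 receptors was called for genotype. A call needed a Benjamini-Hochberg FDR below 0.1 over the 18227 genes tested and an absolute log2 fold change above 0.5 in edgeR's quasi-likelihood test with sex as an additive term, a rule by which 8.64% of all tested genes were called (14.8% at the FDR alone). At an unadjusted p below 0.05 there were 2 receptors, Tlr2 and Tlr9, and DESeq2 also called 0, with 1 receptor below that p. The median log2 fold change (KI minus WT) was -0.05 over the receptors and -0.00 over all tested genes, with 3 receptors above 0 and 7 below. For 8 of 10 the 95% interval lay within ±0.5. The exceptions were Tlr2 and Tlr8.

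Tlr2, the lipopeptide receptor, had the largest difference of the 10. It was at 95.7, 99.2, 153 and 141 CPM in WT_f replicates 1 to 4 and at 79.6, 87.5, 98.5 and 108 CPM in KI_f. In WT_m it was at 105, 114, 108 and 116 CPM and in KI_m at 74.5, 76.9, 126 and 121 CPM. KI_m 1 and 2 were the lowest libraries of all, WT_f 3 and 4 the highest, and the genotypes overlapped. The log2 fold change was -0.27 (SE 0.121, 95% interval -0.526 to -0.0179, edgeR FDR 0.174), and KI libraries were above the WT median in 2 of 8. An exact permutation of genotype within sex gave a two-sided p of 0.0665, where the smallest possible over 4900 splits is 0.000408. Within females the log2 fold change was -0.39 (SE 0.170, edgeR FDR 0.197) and within males -0.15 (SE 0.171, edgeR FDR 0.771).

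Tlr9, the receptor for CpG DNA, had a small difference with a narrow error. It was at 93.7, 83.9, 92.4 and 91.0 CPM in WT_f and at 81.3, 81.6, 79.0 and 87.3 CPM in KI_f. It was at 93.1, 98.4, 84.3 and 96.8 CPM in WT_m and at 81.0, 80.3, 103 and 85.9 CPM in KI_m. The highest of all 16 was a KI library, KI_m 3, while only that KI library exceeded the WT median. The log2 fold change was -0.11 (SE 0.0519, 95% interval -0.222 to -0.00408, edgeR FDR 0.189), and the exact permutation p was 0.0502.

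Tlr7, the most abundant receptor, was at 298, 260, 254 and 220 CPM in WT_f and at 274, 254, 198 and 213 CPM in KI_f. It was at 248, 312, 216 and 242 CPM in WT_m and at 212, 239, 259 and 205 CPM in KI_m. The groups overlapped throughout, and the log2 fold change of -0.14 (SE 0.0838) had an edgeR FDR of 0.313. The 3 libraries with the most Tlr7 (WT_m 2, WT_f 1 and KI_f 1) were also the 3 with the highest totals, in the same order, whereas the library ranked 4 by Tlr7, WT_f 2, had the lowest total of all. The part of depth was not tested.

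Tlr8, which reads RNA breakdown products beside Tlr7, was at 7.88, 8.09, 6.35 and 6.15 CPM in WT_f and at 5.42, 6.57, 7.06 and 6.96 CPM in KI_f. It was at 8.39, 6.64, 5.72 and 3.96 CPM in WT_m and at 6.12, 10.01, 10.2 and 9.21 CPM in KI_m. KI_m 2, 3 and 4 were the highest of all libraries and WT_m 4, with 39 counts, the lowest. Within males the log2 fold change was 0.51 (SE 0.198, 95% interval 0.0936 to 0.927, edgeR FDR 0.318), and within females -0.13 (SE 0.199, edgeR FDR 0.775). The difference between the sexes itself, -0.64 (SE 0.281), had an edgeR FDR of 0.774. Over both sexes the log2 fold change was 0.19 with a 95% interval of -0.136 to 0.518.

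The remaining endosomal receptors had differences close to 0. Tlr13, which in the mouse reads bacterial ribosomal RNA, was at 137 to 176 CPM (median 154) in WT_f, 140 to 168 (151) in KI_f, 136 to 165 (141) in WT_m and 132 to 175 (144) in KI_m, and its log2 fold change was 0.00 (95% interval -0.131 to 0.136). Tlr3, the sensor of double-stranded RNA, was at 43.1 to 58.2 CPM over all libraries, with a log2 fold change of -0.06 (95% interval -0.172 to 0.0551). KI_f 3 and 4 were the lowest for Tlr3, at 47.2 and 43.1 CPM.

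The surface receptors other than Tlr2 were as close. Tlr4 was at 71.5 to 79.1 CPM in WT_f and 68.3 to 86.5 in WT_m, against 61.7 to 91.8 in KI_f and 70.5 to 84.3 in KI_m, and its log2 fold change was 0.05 (95% interval -0.105 to 0.205). KI_f held both the 2 highest libraries and the lowest. Tlr1 had a log2 fold change of -0.03 (95% interval -0.177 to 0.114), Tlr5 of -0.02 (-0.182 to 0.138) and Tlr6 of -0.06 (-0.213 to 0.0947). Tlr1 was at 22.0 to 29.3 CPM over all libraries, Tlr5 at 22.9 to 33.6 and Tlr6 at 16.02 to 23.9, and the genotypes overlapped for each.

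**Figure D2:**
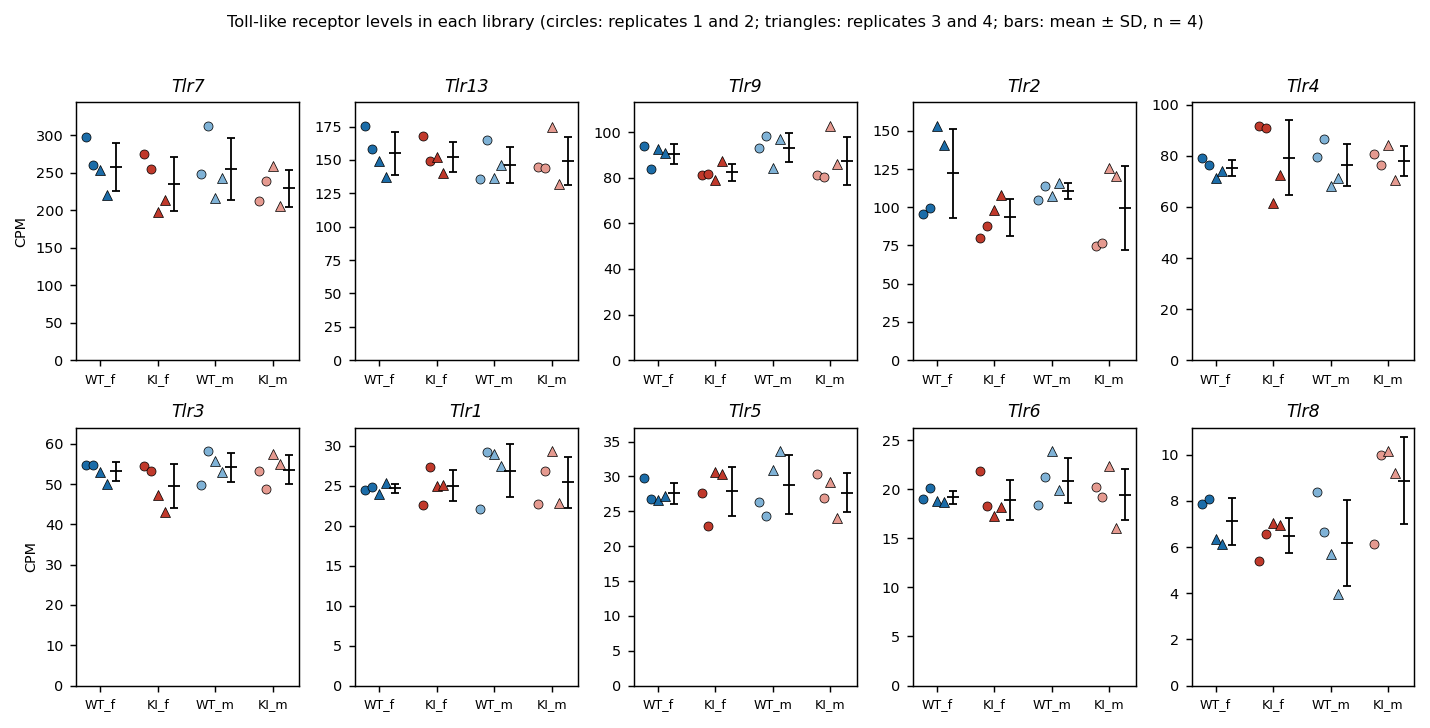
CPM of the 10 receptors in every library by group, on axes that start at 0, with circles for replicates 1 and 2, triangles for replicates 3 and 4, and bars for mean ± SD (n = 4). Tlr2 in WT_f and KI_m splits into a lower pair of circles and a higher pair of triangles, and the genotypes overlap in every panel.

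Within each sex the counts were the same as over both. In females 0 of 10 receptors were called, beside 7.15% of all tested genes, and in males 0 of 10 beside 0.252%, and in each sex 1 receptor had an unadjusted p below 0.05 (Tlr2 in females, Tlr8 in males). The genotype-by-sex interaction called 0 of 10 beside 0.0274% of all tested genes, with Tlr8 below an unadjusted p of 0.05. DESeq2 called 0 in these 3 tests as well, with 1 receptor below that p in each.

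Sex was tested because 3 of the receptors lie on the X chromosome and Tlr7 is known to escape inactivation in part of human immune cells. Between females and males 0 of 10 receptors were called by edgeR or DESeq2, and none had an unadjusted p below 0.05 in either, beside 0.0604% of all tested genes called by edgeR. The log2 fold change (female minus male) of Tlr7 was 0.03 (95% interval -0.149 to 0.203), that of Tlr8 -0.14 (-0.468 to 0.186) and that of Tlr13 0.06 (-0.0751 to 0.193). For each of these 3 the interval leaves out a difference of 0.5 or more in either direction, though that of Tlr8 reached -0.468. The autosomal receptors lay between -0.08 (Tlr6) and 0.03 (Tlr2).

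**Figure D3:**
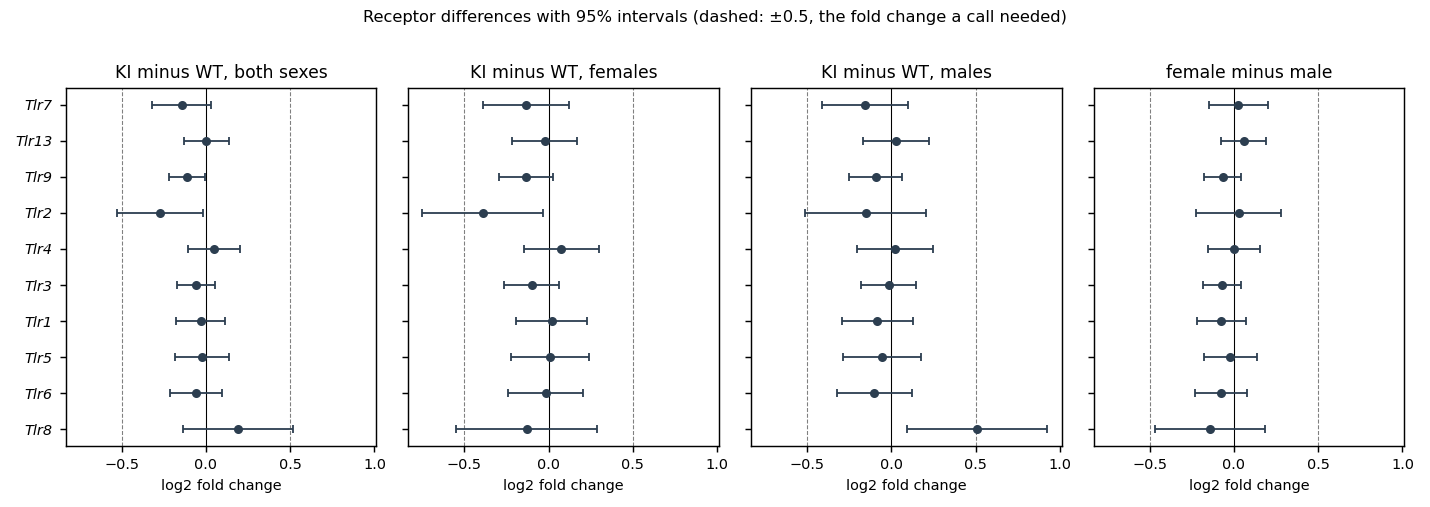
Log2 fold change of each receptor with its 95% interval for genotype over both sexes, within females and within males, and for sex, with dashed lines at ±0.5. Tlr2 in females (-0.39) and Tlr8 in males (0.51) lie farthest from 0, and no receptor passed the FDR.

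The library sets differed in the values of Tlr2. Among numbers 1 to 8 the 4 KI libraries (74.5 to 87.5 CPM) all lay below the 4 WT libraries (95.7 to 114 CPM). Among numbers 9 to 16 the KI libraries (98.5 to 126 CPM) overlapped with the WT libraries (108 to 153 CPM). The log2 fold change was -0.39 (SE 0.0696, edgeR FDR 0.00394) in the first set and -0.18 (SE 0.114, edgeR FDR 0.735) in the second, and the genotype-by-set interaction of 0.19 (SE 0.147, edgeR FDR 0.743) was not past the threshold. With the set as a term over all 16 libraries it was -0.29 (SE 0.0749, edgeR FDR 0.0220), below the fold change a call needs. This fit put 1 of 10 receptors below the FDR alone, beside 16.6% of all tested genes, and called 0 beside 9.08%.

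In the first set 0 of 10 receptors were called, beside 13.7% of all tested genes, and 2 of 10 (Tlr2 and Tlr9) passed the FDR alone, beside 20.2%. In the second set 0 of 10 were called, beside 0.428%, with 0 at the FDR alone beside 0.516%. At an unadjusted p below 0.05 there were 3 receptors in the first set and 1 in the second. KI and WT libraries did not overlap for 2 of 10 receptors in the first set (Tlr2 and Tlr9, both lower in KI), beside 13.5% of all tested genes, and for 1 of 10 in the second (Tlr8, higher in KI), beside 5.32%. Over all 16 libraries they overlapped for each receptor, while 1.29% of all tested genes had no overlap. Tlr8 had opposite signs in the sets, -0.15 and 0.58, with an interaction of 0.71 (SE 0.274, edgeR FDR 0.601).

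Some receptors differed between the sets themselves. The sets were added after seeing the data, so the FDRs between them are a description. With genotype and sex as terms, Tlr2 was higher in the second set by 0.41 on the log2 scale (SE 0.0750, edgeR FDR 0.0132) and Tlr4 lower, at -0.20 (SE 0.0573, edgeR FDR 0.0834). These were 2 of 10 receptors at the FDR alone, beside 3.83% of all tested genes, and 0 of 10 passed the fold change as well, beside 0.73%. From first to second set the mean of Tlr2 differed by 0.59 (log2) in WT_f, 0.30 in KI_f and 0.70 in KI_m, but by 0.03 in WT_m.

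Tlr2 did not vary alone. Tnf, the cytokine that TLR signalling induces through NF-kB, was at 114, 93.1, 242 and 204 CPM in WT_f and at 32.8, 40.7, 57.3 and 86.7 CPM in KI_f. It was at 105, 102, 109 and 123 CPM in WT_m and at 23.0, 23.7, 102 and 110 CPM in KI_m. WT_f 3 and 4 were again the highest and KI_m 1 and 2 the lowest, with KI_m 3 and 4 at the level of WT_m. Nfkbia, the NF-kB inhibitor, had the same 2 lowest libraries among KI_m, at 248 and 292 CPM against 616 and 600 CPM in KI_m 3 and 4. On the residuals from the 4 group means over 16 libraries, the gene most like Tlr2 was Gadd45b, a stress-induced gene (Pearson's r 0.97, Spearman's rho 0.94, r 0.96 without the 2 libraries farthest from the median). These libraries share depth and handling, and the likeness is a description. The residuals also keep the difference between the library sets, whose part in the likeness was not tested.

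**Figure D4:**
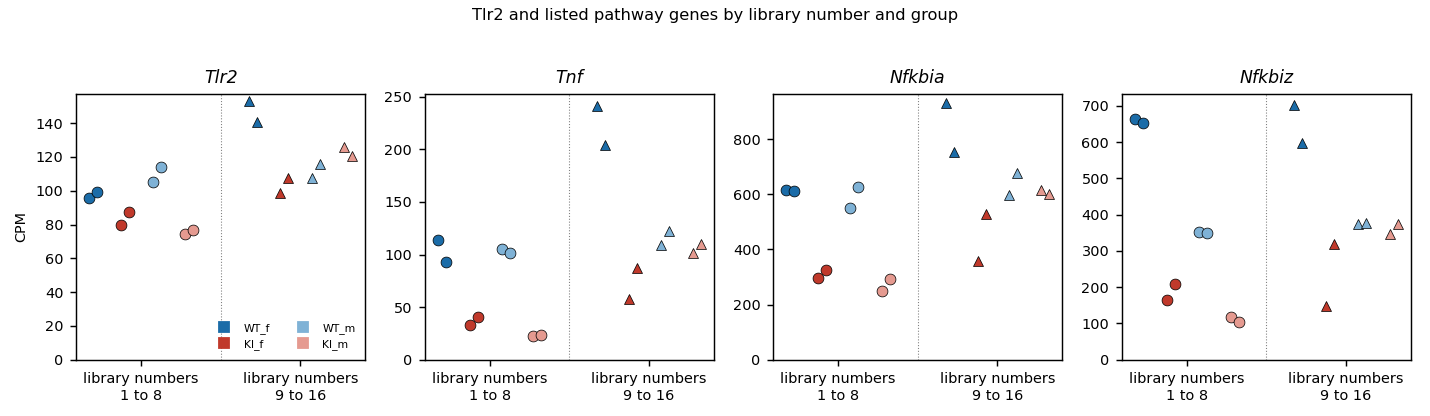
CPM of Tlr2, Tnf, Nfkbia and Nfkbiz in each library, split by library number (1 to 8, circles; 9 to 16, triangles) and coloured by group. In the first set every KI point lies below every WT point in the 4 panels, where 13.5% of all tested genes had no overlap in either direction. In the second set KI_m lies near the level of WT_m in the 4 panels. For Nfkbiz every KI point still lies below every WT point there, where 5.32% of all tested genes had no overlap.

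For the other receptors the most alike genes by the same measure were Aftph for Tlr7 (r 0.97, rho 0.96), Mgat2 for Tlr4 (r 0.97, rho 0.98), Ppp2r5c for Tlr13 (r 0.94, rho 0.93), Nfix for Tlr3 (r 0.92, rho 0.92), Spi1 for Tlr9 (r 0.92, rho 0.89), Sap18 for Tlr1 (r 0.89, rho 0.84), Trim33 for Tlr6 (r 0.88, rho 0.89) and Trp53i11 for Tlr5 (r 0.88, rho 0.84). Without the 2 farthest libraries these r lay between 0.80 and 0.97. For Tlr8 it was Gm54639 (r 0.92, rho 0.80), which had only 0 to 11 counts per library. Among the receptors themselves, Tlr4 and Tlr13 were both most like Tlr7 (r 0.82 each), and Tlr2 was most like Tlr9 (r 0.60). The pair that shares sequence, Tlr1 and Tlr6, had r = 0.44. Many genes were more alike than these receptors. Among 18226 other genes the nearest receptor ranked 269 for Tlr4, 145 for Tlr13, 882 for Tlr2 and 1365 for Tlr1.

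The genes of TLR signalling around the receptors are given by role, and differences between roles were not tested. Of 79 listed genes 78 were tested (Lbp was not), and 8 were called for genotype, all lower in KI, beside the 8.64% of all tested genes. At the FDR alone 18 were lower and 0 higher, beside 14.8%. Of the 78 log2 fold changes 14 were above 0 and 64 below, with a median of -0.10. In bulk samples, fewer cells of a type and less RNA per cell cannot be told apart. Markers of non-myeloid cells also differed over both sexes. Of 6 oligodendrocyte genes 6 were above 0, 3 were higher at the FDR alone and 1 was called, and they summed to 231 to 428 CPM in WT_f, 282 to 413 in KI_f, 231 to 270 in WT_m and 309 to 408 in KI_m. Of 6 neuron genes 3 were higher at the FDR alone and 0 were called, and of 6 astrocyte genes 1 was lower at the FDR alone. Their part in the pathway differences was not tested.

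Among genes upstream of the receptors and beside them none was called, against 8.64% of all tested genes. Lists this short can hold no call at that share. Of 5 tested co-receptor and ligand delivery genes, Cd14, which hands lipopolysaccharide to Tlr4, had a log2 fold change of -0.16 (edgeR FDR 0.347) and Ly96, the Tlr4 co-receptor, of -0.24 (edgeR FDR 0.161). Of 10 genes of endosomal trafficking and folding, Slc15a4, an endolysosomal transporter that Tlr7 and Tlr9 signalling needs, was lower at the FDR alone with -0.34 (SE 0.0714, edgeR FDR 0.00600). Unc93b1, the chaperone that carries the nucleic acid sensors to endosomes, was at 759 to 932 CPM with a log2 fold change of -0.08 (edgeR FDR 0.291).

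Among the adaptors 2 log2 fold changes were above 0 and 4 below, and among the proximal genes 4 were above and 8 below. At the FDR alone 1 adaptor was lower and 0 genes of either list were higher, beside 14.8% of all tested genes. Ticam1, the adaptor of Tlr3 and of endosomal Tlr4, was at 22.5, 21.5, 20.6 and 19.1 CPM in WT_f and at 17.9, 17.8, 14.5 and 16.2 CPM in KI_f, and at 15.3, 19.5, 16.3 and 18.4 CPM in WT_m and 14.5, 11.7, 17.6 and 15.04 CPM in KI_m. Its male groups overlapped, and over both sexes it was lower at the FDR alone with -0.29 (SE 0.0810, edgeR FDR 0.0309). Sarm1, a TIR protein that cleaves NAD, had a log2 fold change of 0.32 (SE 0.133, edgeR FDR 0.146), and in the first library set it was called higher at 0.57 (SE 0.169, edgeR FDR 0.0464). Myd88, the adaptor of the other receptors, had -0.17 (SE 0.0632, edgeR FDR 0.101), and Irak4, its first kinase, -0.08 (edgeR FDR 0.515). Traf6, the ubiquitin ligase that follows, had -0.20 (SE 0.0768, edgeR FDR 0.114). None of the 6 adaptors and 12 proximal genes was called, against 8.64% of all tested genes, a share at which lists this short can hold no call.

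The NF-kB and MAP kinase branch had 12 of 12 genes below 0, beside 9193 of all 18227 tested genes, and 7 were lower at the FDR alone and 1 called, beside 14.8% and 8.64%. Nfkb2, the p100 subunit of the alternative NF-kB pathway, fell by 0.58 on the log2 scale (SE 0.102, edgeR FDR 0.00178), from 65.1 to 81.6 CPM in WT_f to 35.05 to 44.5 CPM in KI_f. In males it was at 52.6 to 58.0 CPM in WT_m and at 37.4, 34.3, 50.4 and 53.9 CPM in KI_m. The 6 others at the FDR alone were Nfkb1, Rel, Rela, Map2k3, Map3k8 and Mapk14, with log2 fold changes from -0.12 to -0.46. In the interferon branch 2 of 7 genes were lower at the FDR alone, Irf5 (-0.24, SE 0.0590) and Irf3 (-0.19, SE 0.0496), both transcription factors of the interferon response, and 0 were called. Irf7, the factor that Tlr7 and Tlr9 use, had 0.21 (edgeR FDR 0.725).

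Of 16 induced target genes 6 were called, all lower, beside 8.64% of all tested genes, and their median log2 fold change was -0.47. Tnf fell by 1.17 on the log2 scale (SE 0.320, edgeR FDR 0.0274) and Nfkbiz, which NF-kB induces and which drives secondary response genes, by 1.14 (SE 0.255, edgeR FDR 0.00890). Ccl3, Ccl4 and Ccl2, chemokines for monocytes, fell by 0.98, 0.77 and 0.69. Il10, an anti-inflammatory cytokine, fell by 1.12 (SE 0.405, edgeR FDR 0.0908) at levels of only 0.0746 to 1.21 CPM. Of 10 negative regulators 1 was called, Nfkbia, which fell by 0.72 (SE 0.180, edgeR FDR 0.0178). Leaving out 1 library at a time kept the call of Il10 in 4 of 16 fits and that of Ccl2 in 7 of 16. Without KI_m 3 or without KI_m 4, 10 pathway genes were called, beside 2187 and 1576 of all tested genes, against 1574 with all 16 libraries.

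The pathway genes also differed between the library sets. In the first set 14 of 78 pathway genes (17.9%) were called, 13 of them lower in KI, beside 13.7% of all tested genes. In the second set 0 were called, with 9 at an unadjusted p below 0.05, beside 0.428% of all tested genes, so the count moved with that of the whole table. KI and WT libraries did not overlap for 26 of 78 pathway genes in the first set (33.3%), beside 13.5% of all tested genes. In the second set this held for 2 of 78 (Ccl3 and Nfkbiz, both lower in KI), or 2.56%, beside 5.32%. For Tnf the log2 fold change was -0.87 (SE 0.262, edgeR FDR 0.298) in the second set. Between the sets 8 pathway genes were called, all higher in the second set and among them Tnf, which was higher by 1.12 on the log2 scale (SE 0.195, edgeR FDR 0.0107). The list's 8 of 78 compare with 0.73% of all tested genes, and as the sets were added after seeing the data, these calls are a description. The genotype-by-set interaction called 0 pathway genes, beside 0% of all tested genes, with 11 at an unadjusted p below 0.05.

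Within females 11 pathway genes were called lower, beside 7.15% of all tested genes, and within males 0, with 4 at an unadjusted p below 0.05, beside 0.252%. DESeq2 called 12 and 0. The interaction called 0 by either tool, with 7 at an unadjusted p below 0.05 in each, so that a difference between the sexes was not shown. The females' count changed with the library left out, to 4 without KI_f 1, 5 without WT_f 3 or KI_f 3, and 7 without KI_f 2. Of all tested genes 1304 were called within females, against 999, 1026, 696 and 1008 without KI_f 1, WT_f 3, KI_f 3 and KI_f 2. In these libraries the 7 endothelial genes summed to 78.0 to 175 CPM in WT_f and 70.3 to 90.6 CPM in KI_f, with 6 of 7 called lower within females, and to 51.3 to 64.2 CPM in WT_m and 67.6 to 97.3 CPM in KI_m. The 6 neuron genes summed to 217 to 289 CPM in WT_f and 309 to 411 CPM in KI_f, with 2 called higher within females. The 6 astrocyte genes summed to 601 to 1154 CPM in WT_f and 472 to 762 CPM in KI_f, with 3 called lower. The part of these lists in the differences was not tested. Sex called 0 pathway genes by edgeR or DESeq2, with 8 and 7 at an unadjusted p below 0.05.

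**Figure D5:**
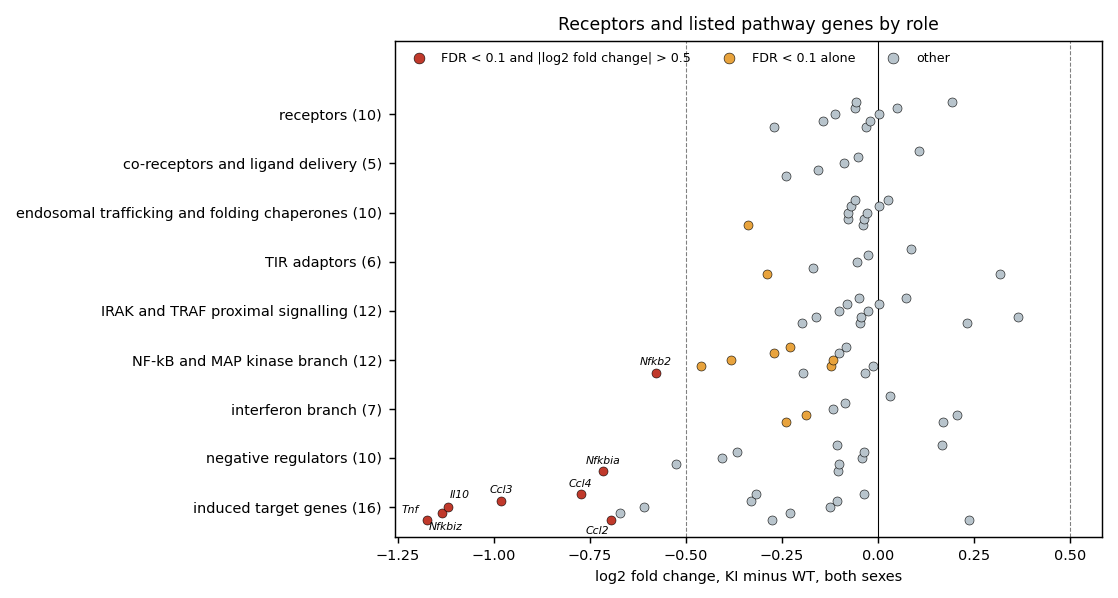
Log2 fold change for genotype (KI minus WT over both sexes) of the 10 receptors and 78 tested pathway genes, 1 point per gene in a row for each role, red where called, orange where only the FDR passed and grey otherwise. The receptors lie between -0.27 and 0.19, and 6 of the 8 called genes are induced targets.

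Of 13 sensors of other families 1 was called, beside 8.64% of all tested genes. Nlrp3, the inflammasome sensor whose transcription TLR signalling induces, fell by 0.67 (SE 0.148, edgeR FDR 0.00839). It was at 227, 174, 195 and 203 CPM in WT_f and at 84.6, 113, 83.7 and 134 CPM in KI_f, and at 109, 110, 117 and 121 CPM in WT_m and 57.9, 63.5, 110 and 118 CPM in KI_m. KI_m 3 and 4 again lay at the level of WT_m.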

How the data were processed

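Microglial RNA of 16 libraries was sequenced after Takara SMART-Seq Stranded preparation. The authors aligned paired reads with STAR to a customised GRCm39 genome with a human App sequence and deposited raw counts per gene, with 1 column per library. The strand column that was taken is not given in the sources used here. A reporting form mentions technical replicates for RNA sequencing, and no source used here ties each library to 1 mouse, so p-values measure the spread between these libraries, which may be technical. Groups came from the sample titles.

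Genes that reached 5 counts in 8 or more libraries were kept (18227 genes, holding 99.9% of the counts) and tested in R 4.3.3 with edgeR 4.0.16 (TMM, glmQLFit, glmQLFTest), with sex as an additive term. For contrasts within a sex and the interaction, the model had 1 mean per group. The SE was taken from the log2 fold change and its F statistic. DESeq2 1.42.0 was an alternative. The procedure was tested on simulated data. Log2 CPM carries a prior count of 2. Lengths and positions came from a newer GENCODE release on the same GRCm39 assembly. The depth, 9052932 to 18117286 counts per library, limits Tlr8 most. Intervals and floors cover counting error or the fit's error only.

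The receptors and the gene lists were chosen with earlier results of these data known. The genes named are all 10 receptors and, of the pathway list and other sensors, those with an FDR below 0.1 for genotype or sex, at most 6 a direction by smallest p, plus Cd14, Ly96, Myd88, Ticam1, Unc93b1, Irak4, Traf6 and Irf7. Further listed genes were named after their values were seen. Alternatives were another normalization (RLE), DESeq2, no filter, no sex term, a replicate block, the FDR alone and leaving out each library. The library sets (numbers 1 to 8 and 9 to 16) were added after seeing the data. 1 gene of the microglia marker list, and the sum over that list, are not reported here.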

Additional observations from a re-analysis of the deposited data

Results flagged for a closer look

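Among 29 quantities in the 4 groups, 116 sets of 4 libraries, a library whose gap to the nearest other exceeded Dixon's critical share of the group's range was found 6 times, where chance gives about 1 in 20, and for none of the 10 receptors by itself. The summed level of the 10 receptors stood apart in KI_m 3, at 895 CPM against at most 748 CPM in the other KI_m libraries. In the same library Ly96 was at 5.79 CPM (next 4.85 CPM) and Traf6 at 38.1 CPM (next 29.2 CPM). Ccl2 stood apart in WT_m 3 at 95.8 CPM, above the next at 74.9 CPM, Ccl4 in KI_f 4 at 334 CPM, above 196 CPM, and Irf7 in WT_m 2 at 25.6 CPM, above 9.53 CPM. Their causes were not tested.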

How the results depend on the processing

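The number of the 10 receptors called was 0 in each of the 5 comparisons under every alternative run. For single receptors, 26 results were recomputed under 22 to 25 alternative settings each. These were all 10 for genotype and for sex, and Tlr2 and Tlr8 within each sex and for the interaction. Of the 602 values 32 changed sign without a call, in 9 results. The settings share libraries and the FDR alone reuses the main fit, so the values are not independent. The FDR of Tlr2 over both sexes depended on the setting: it was 0.173 with DESeq2, 0.0189 with no filter, and between 0.0644 (without KI_m 3) and 0.354 with each library left out. Within females it was below 0.1 in 3 of 22 alternatives (0.000202 with no filter, 0.0671 with the replicate block and 0.0442 with the library set as a term), and 0.181 to 0.487 with each library left out. That of Tlr9 ranged from 0.0318 (without KI_m 3) to 0.362 with each library left out. With the replicate block, 0 receptors and 8 pathway genes were called for genotype (Tnfaip3 in place of Il10), beside 1562 of all tested genes. Tlr2 then had an FDR of 0.0352. Within females 12 pathway genes were called with the block (Icam1 added), beside 1210 of all tested genes. The counts within males, for the interaction and for sex were again 0, beside 43, 3 and 11 of all tested genes. The labels share only the number: the mean correlation of same-numbered libraries was -0.01, -0.02, 0.00 and 0.07 for replicates 1 to 4. It was taken over all tested genes, so it cannot show whether single genes differ with the number, as Tlr2 did between the library sets.

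The pathway count of 8 became 18 at the FDR alone, 14 in library numbers 1 to 8, 0 in numbers 9 to 16, and 6 to 10 with each library left out. Over all tested genes the count of 1574 became 2692, 2494, 78 and 1101 to 2187. The females' count of 11 became 19 at the FDR alone and ranged from 4 to 13 with each library left out. Over all tested genes within females the count of 1304 became 1717 and 594 to 2110. The males' count of 0 became 5 with no filter (Cd40, Ccl3, Ccl4, Nfkbiz and Tnf) and 1 with the library set as a term (Ccl3), and the interaction's 0 became 9 with no filter. Under the same settings the count over all genes within males went from 46 to 880 and 141, and that of the interaction from 5 to 470. Tnf, Nfkbiz, Nfkbia, Nfkb2, Ccl3, Ccl4 and Nlrp3 were called in 24 of 25 alternatives, Ccl2 in 15 and Il10 in 11, and library numbers 9 to 16 ended each of these calls. With the longest transcript as the length, the order of the 10 levels was the same. Tlr4, at 18.8 CPM per kb, then lay nearer to Tlr2 (20.8) than to Tlr3 (11.3), so the middle group depended on the length. The causes were not tested. Depth limits Tlr8 (39 to 131 counts).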

Other observations

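The table also holds Tlr11 and Tlr12, which are not among the 10 receptors chosen. Tlr12, which with Tlr11 binds profilin of parasites in the mouse, was at 14.6 to 22.2 CPM in the 16 libraries, near the 16.02 to 23.9 CPM of Tlr6, and had a log2 fold change for genotype of 0.06 (SE 0.0838, edgeR FDR 0.705). Tlr11 had 3 to 12 counts per library.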
